A study of Mus musculus with 16 samples.

Results

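The intercalated disc is the end-to-end contact through which heart muscle cells pull on each other and pass current. The genes of it followed here are 10 symbols that matched 1 row each among the 35682 genes of the deposited count table. They were Dsp, Pkp2, Jup, Dsg2, Dsc2, Cdh2, Ctnna3, Ctnnal1, Gja1 and Tjp1, and all 10 passed the filter on low counts that left 10945 genes for testing. Adult ventricular myocytes of 16 mice gave the RNA, 8 carrying no transgene (WT littermates) and 8 with the B3AR transgene (B3AR-Tg), whose name stands for the beta3-adrenoceptor. In all 16 the aorta had been narrowed by surgery (transverse aortic constriction, TAC) 9 weeks earlier, which puts a pressure load on the left ventricle, so both groups carried the load, and no unoperated animal is compared here. The promoter that drives the transgene, the strain, the age and the sex of the animals were not given in the sources used here. The myocytes were isolated on a Langendorff perfusion apparatus and were kept on plates for 1 hour before RNA was taken.

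Desmosomes, adherens junctions and gap junctions share the disc. In a desmosome the cadherins desmoglein 2 (Dsg2) and desmocollin 2 (Dsc2) reach across to the neighbouring cell, plakoglobin (Jup) and plakophilin 2 (Pkp2) bind their tails, and desmoplakin (Dsp) ties this plaque to desmin filaments. In the adherens junction N-cadherin (Cdh2) is held to actin through beta-catenin or plakoglobin and an alpha-catenin, of which alphaT-catenin (Ctnna3) is enriched in the heart. Connexin 43 (Gja1) forms the gap junction channels of ventricular myocytes, and ZO-1 (Tjp1) is a scaffold at the rim of those channels. Ctnnal1 encodes alpha-catulin, a relative of the alpha-catenins and vinculin that is not a standard disc component. Mutations of the desmosomal genes are a known cause of arrhythmogenic cardiomyopathy.

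Promoter windows, 250 bases before to 50 bases after a gene's start, were taken from RefSeq on GRCm38.p6 for 6 of the 10 genes. These were 8 windows, because Ctnna3 had several starts. Pkp2 and the cadherin genes Dsg2, Dsc2 and Cdh2 are not among the 6, so the motif counts of members do not cover them. Windows are shown for 3 of the 6 genes. Ctnnal1 was chosen because it was the member that passed the test, and Dsp because it had the highest level. Gja1 was chosen because its start differed from theirs in base composition and motifs. The Ctnnal1 window lies at chr4:56865162-56865461 on the minus strand, the Dsp window at chr13:38151044-38151343 on the plus strand and the Gja1 window at chr10:56377050-56377349 on the plus strand. Each is printed 5′ to 3′ along its gene, and capitals mark matches on either strand to the motifs searched.
Ctnnal1: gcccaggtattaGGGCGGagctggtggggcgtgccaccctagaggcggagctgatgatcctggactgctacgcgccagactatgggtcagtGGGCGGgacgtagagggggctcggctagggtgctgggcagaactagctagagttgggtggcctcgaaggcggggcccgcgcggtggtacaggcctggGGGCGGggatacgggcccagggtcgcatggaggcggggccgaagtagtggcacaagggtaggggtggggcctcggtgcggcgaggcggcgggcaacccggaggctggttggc
Dsp: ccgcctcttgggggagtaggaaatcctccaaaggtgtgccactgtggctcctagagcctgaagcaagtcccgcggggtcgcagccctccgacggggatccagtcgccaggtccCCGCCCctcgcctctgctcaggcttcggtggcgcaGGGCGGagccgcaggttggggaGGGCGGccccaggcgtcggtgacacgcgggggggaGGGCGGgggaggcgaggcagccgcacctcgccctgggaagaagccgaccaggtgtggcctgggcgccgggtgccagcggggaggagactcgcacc
Gja1: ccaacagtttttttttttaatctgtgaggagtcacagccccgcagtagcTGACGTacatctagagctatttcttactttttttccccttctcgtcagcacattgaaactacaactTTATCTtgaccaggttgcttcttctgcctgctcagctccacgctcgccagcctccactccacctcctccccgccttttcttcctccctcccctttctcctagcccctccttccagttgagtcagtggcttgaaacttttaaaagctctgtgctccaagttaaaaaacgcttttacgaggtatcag
The motifs were the GC box GGGCGG, the GATA factor motif AGATAA, the TEAD motif CATTCC, the E-box CACGTG, the cAMP response element start TGACGT, the NKX2-5 motif TNAAGTG and the MEF2 motif. The GC box was added after the sequences had been seen. It was found in the windows of Ctnnal1, Dsp, Jup, Tjp1 and Ctnna3 (5 of 8 windows), against 35.7% of all 32851 windows. The Ctnnal1 window held 3 GC boxes on the gene's strand and had a GC content of 70.3%, against a median of 52.7% over all windows. The Dsp window held 4 and had a GC content of 73.0%. The Gja1 window held none and had a GC content of 47.7%, but it held TGACGT (7.51% of all windows) and AGATAA on the opposite strand (11.2% of all windows). The TEAD motif (14.7% of all windows) was found in 1 Ctnna3 window, and the E-box, NKX2-5 and MEF2 motifs were found in 0 of the 8. No matches overlapped in these windows, and a match is a description of letters only.

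Library totals ranged from 5985335 to 14365864 counts, and levels are given as CPM, the count of a gene scaled by its library total with TMM factors. Mouse Adrb3, the endogenous counterpart of the receptor the line is named for, held 0 to 4 counts in WT libraries and 0 to 3 in B3AR-Tg libraries, which gives no check of the genotype labels. Myocyte markers summed to between 33671 and 44476 CPM in WT and between 40496 and 47681 CPM in B3AR-Tg. Of these 7 markers 1 was called higher in B3AR-Tg (edgeR adjusted p under 0.05), and estimates were above 0 for 5. Markers of other cells differed with genotype. Of the fibroblast markers 5 of 8 tested were called lower in B3AR-Tg (summed level 47.5 to 194 CPM in WT, 13.0 to 67.1 in B3AR-Tg). Of the endothelial markers 3 of 9 were called lower (90.4 to 138 CPM and 42.0 to 162). Of the mural markers 0 of 6 were called (83.0 to 143 and 43.4 to 138). Of the leukocyte markers 0 of 3 were called (5.81 to 16.5 and 2.12 to 8.43). Estimates were below 0 for 8 of 8 fibroblast, 9 of 9 endothelial, 5 of 6 mural and 3 of 3 leukocyte markers. Atrial markers were at 14.3 to 78.2 CPM in WT and 2.21 to 48.4 CPM in B3AR-Tg with 0 of 3 called, and mesothelial markers reached at most 6.70 CPM with 0 tested. No listed marker was at 0 in all animals. The mean log2 CPM of 26 fibroblast, endothelial, leukocyte and mural markers was 2.80 ± 0.27 (SD, n = 8) in WT and 1.97 ± 0.54 in B3AR-Tg (two-sided exact permutation p = 0.000622). In such bulk samples fewer cells of a type and less RNA per cell cannot be told apart.

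Dsp stood far above the other members. Per kilobase of the principal GENCODE M21 transcript, a scale on which genes can be set side by side, its level in WT was 212 ± 34.6 CPM per kb (SD, n = 8). Gja1 followed at 62.6 ± 19.5, Pkp2 at 61.1 ± 9.42 and Cdh2 at 52.8 ± 3.99 CPM per kb, and these 3 did not differ beyond their spread. Jup (23.6 ± 3.49) and Ctnna3 (16.5 ± 1.83) were lower. The desmosomal cadherin genes were low beside the plaque genes whose products bind them, with Dsc2 at 9.14 ± 1.56 and Dsg2 at 4.96 ± 1.64 CPM per kb. Ctnnal1 was at 9.09 ± 1.24, level with Dsc2, and Tjp1 at 6.57 ± 0.739, within the spread of Dsg2. In B3AR-Tg the ends of this order were Dsp at 176 ± 30.8 and Tjp1 at 6.74 ± 1.12 CPM per kb, and Dsg2 was at 8.22 ± 3.44.

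Of the 10 members, 1 differed between genotypes at an adjusted p under 0.05 (edgeR quasi-likelihood test, Benjamini-Hochberg over all genes), and it was higher in B3AR-Tg. Over all tested genes 4.91% passed in either direction, 2.03% higher and 2.88% lower, and a count of 1 in 10 is not far from these shares. Unadjusted p-values under 0.05 were found for 5 of the 10 (Ctnnal1, Dsg2, Dsc2, Cdh2 and Dsp), against 19.3% of all tested genes. The groups overlapped for all 10 members, and over all tested genes 0.448% had groups that did not overlap. The median log2 fold change of the 10 was 0.18, beside 0.01 over all tested genes. Estimates were above 0 for 7 of the 10, and for 5595 of all 10945 tested genes.

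**Figure D1:**
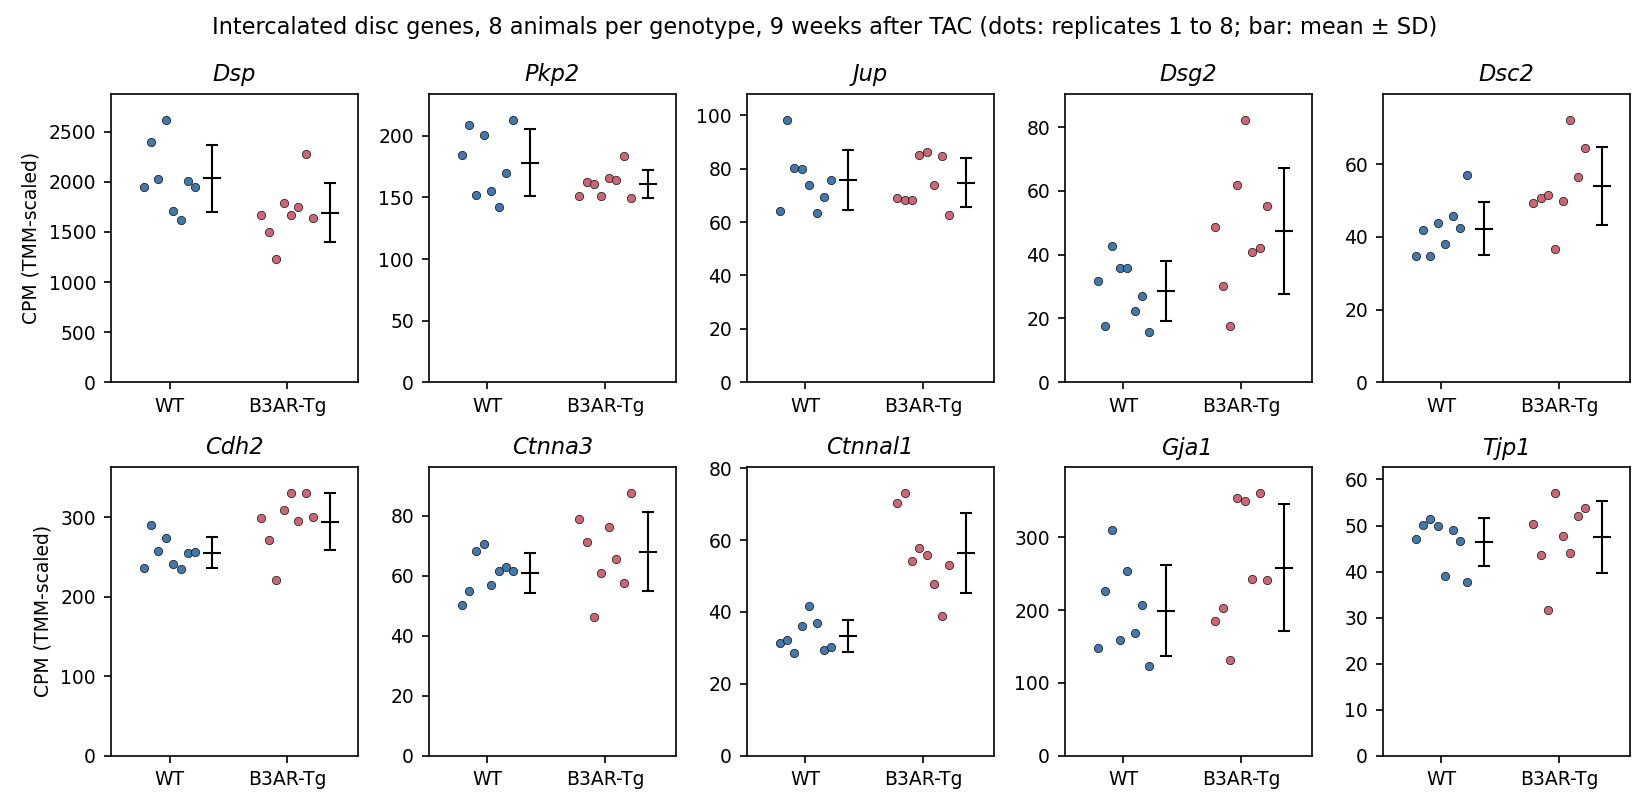
Level of each of the 10 genes (vertical axis, TMM-scaled CPM, from 0) in 8 WT and 8 B3AR-Tg animals; dots are animals in order of replicate number and bars are mean ± SD. Ctnnal1 is the gene whose groups come closest to separating, with 7 of 8 B3AR-Tg animals above the highest WT animal at 41.7 CPM.

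The member that passed was Ctnnal1 (ENSMUSG00000038816, chromosome 4), the alpha-catulin gene whose GC-rich start is printed above. Its level in WT had a lowest value of 28.5, a median of 31.8 and a highest value of 41.7 CPM, and in B3AR-Tg 39.0, 55.1 and 73.0 CPM. All but 1 of the B3AR-Tg animals lay above every WT animal. The exception was B3AR-Tg replicate 7 at 39.0 CPM, below WT replicate 5 at 41.7 CPM. Its level was 1.69-fold higher in B3AR-Tg (log2 fold change 0.76, standard error (SE) 0.12, edgeR adjusted p = 0.00155), and Ctnnal1 ranked 12 among all tested genes by p-value. The markers of other cells were lower in the genotype in which Ctnnal1 was higher. With the mean level of those markers as a covariate, the estimate for Ctnnal1 was 0.52 (SE 0.15, edgeR adjusted p = 0.155), in a fit that called 18 genes in all. In that fit Cdh2 was at 0.36 and Gja1 at 0.64, and 0 of the 10 members were called. The marker level itself differed with genotype, so this fit cannot tell the marker level and genotype apart. The part of other cells in the Ctnnal1 difference was not tested.

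Dsp (ENSMUSG00000054889, chromosome 13), whose product anchors desmin, had a lower mean in B3AR-Tg that did not pass over all genes. WT animals ranged from 1614 to 2620.0 CPM with a median of 1978, and B3AR-Tg animals from 1232 to 2279 with a median of 1671. Of the B3AR-Tg animals 7 were below the WT median, and the exception was replicate 7. The estimated log2 difference was −0.27 (SE 0.11, edgeR adjusted p = 0.198). It was 0.0054 with the other-cell markers as a covariate (adjusted p = 0.994).

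The armadillo protein genes of the plaque did not pass the test. Pkp2 (ENSMUSG00000041957, chromosome 16), whose product holds desmoplakin at the cadherin tails, ran from 142 to 213 CPM among WT animals with a median of 177, and from 149 to 184 CPM among B3AR-Tg animals with a median of 162. Its B3AR-Tg values all lay inside the WT range, and their coefficient of variation was 7.02%, against 15.4% in WT. Its log2 fold change was −0.15 (SE 0.09, edgeR adjusted p = 0.388). Jup (ENSMUSG00000001552, chromosome 11), which serves both junction types, ranged from 63.4 to 98.3 CPM in WT and overlapped at 62.8 to 86.3 in B3AR-Tg. It averaged 75.6 ± 11.2 CPM in WT against 74.8 ± 9.22 in B3AR-Tg (log2 fold change −0.02, SE 0.10, adjusted p = 0.945).

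Dsg2 (ENSMUSG00000044393, chromosome 18) was the most variable member. It ran from 15.8 to 42.6 CPM among WT animals with a median of 29.4, and from 17.7 to 82.4 CPM among B3AR-Tg animals with a median of 45.5. The highest B3AR-Tg animal was 4.64 times the lowest, and the coefficient of variation was 33.2% in WT and 41.8% in B3AR-Tg. Above the highest WT animal lay 4 of the 8 B3AR-Tg animals, while replicate 3 at 17.7 CPM was the lowest of its group. Its log2 fold change of 0.73 (SE 0.24) was close in size to that of Ctnnal1 but did not pass (edgeR adjusted p = 0.0916). Without B3AR-Tg replicate 3 it was 0.85 and passed (adjusted p = 0.0244), the only 1 of 26 other settings in which Dsg2 passed. Without B3AR-Tg replicate 5, the highest animal, it was 0.57 (adjusted p = 0.211).

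Dsc2 (ENSMUSG00000024331, chromosome 18), the partner of Dsg2 in the desmosome, ran from 34.6 to 57.0 CPM among WT animals with a median of 42.3, and from 36.7 to 72.3 CPM among B3AR-Tg animals with a median of 51.2. WT replicate 8 was the high WT animal and B3AR-Tg replicate 4 the low B3AR-Tg animal. For Dsc2 the log2 fold change was 0.35 (SE 0.12, edgeR adjusted p = 0.101). It passed when WT replicate 8 was left out (0.43, adjusted p = 0.0452), when B3AR-Tg replicate 4 was left out (0.41, adjusted p = 0.0382) and with limma voom (0.43, adjusted p = 0.0372). These were 3 of 26 other settings. The lowest estimate was 0.28, without B3AR-Tg replicate 6 (adjusted p = 0.184).

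Cdh2 (ENSMUSG00000024304, chromosome 18), the cadherin of the adherens junction, was the least variable member in WT, with a coefficient of variation of 7.56%. It ran from 235 to 291 CPM among WT animals with a median of 256, and from 221 to 331 CPM among B3AR-Tg animals with a median of 300.3. Of the B3AR-Tg animals 6 lay above the highest WT animal, and 1, replicate 3, lay below the lowest. For Cdh2 the log2 fold change was 0.20 (SE 0.08, edgeR adjusted p = 0.161). It passed without B3AR-Tg replicate 3 (0.26, adjusted p = 0.0384) and with limma voom (0.24, adjusted p = 0.0452). These were 2 of 26 other settings. The lowest estimate was 0.18, without B3AR-Tg replicate 7 (adjusted p = 0.231).

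Its linker Ctnna3 (ENSMUSG00000060843, chromosome 10) had a lowest value of 50.1 and a highest of 70.4 CPM in WT, inside the B3AR-Tg span of 46.4 to 87.4. It averaged 60.8 ± 6.75 CPM in WT against 68.0 ± 13.1 in B3AR-Tg (log2 fold change 0.16, SE 0.11, edgeR adjusted p = 0.444). The other linkers of N-cadherin did not pass either. Ctnna1, the widely expressed alpha-catenin, averaged 293 ± 31.5 CPM in WT against 327 ± 24.7 in B3AR-Tg (0.16, SE 0.08, adjusted p = 0.267). Ctnnb1, beta-catenin, averaged 297 ± 28.6 CPM in WT against 274 ± 17.8 in B3AR-Tg (−0.12, SE 0.07, adjusted p = 0.400), and Vcl, vinculin, was at 117 CPM in both (0.00, SE 0.10, adjusted p = 0.997).

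Gja1 (ENSMUSG00000050953, chromosome 10) ran from 123 to 310 CPM among WT animals with a median of 187, and from 131 to 360 CPM among B3AR-Tg animals with a median of 242. The groups overlapped widely, and animals of 1 genotype differed by up to 2.75 times. Its log2 fold change was 0.37 (SE 0.20, edgeR adjusted p = 0.329), so the connexin 43 estimate carried an error almost as large as that of Dsg2. Tjp1 (ENSMUSG00000030516, chromosome 7) lay between 37.6 and 51.4 CPM in WT, inside the B3AR-Tg span of 31.7 to 57.0. It averaged 46.3 ± 5.21 CPM in WT against 47.5 ± 7.88 in B3AR-Tg (0.04, SE 0.10, adjusted p = 0.893). Gja5, connexin 40 of the conduction system and atria, held 2 to 16 counts per library in WT and 4 to 16 in B3AR-Tg and did not pass the filter.

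**Figure D2:**
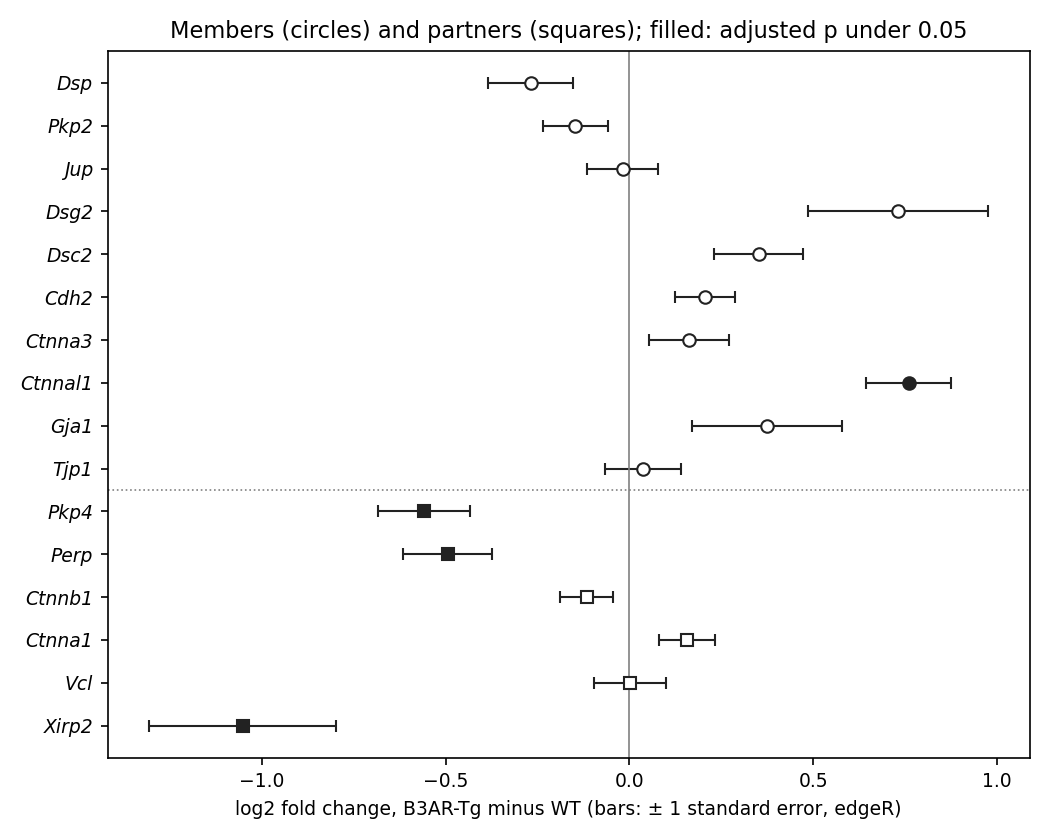
Log2 fold change of B3AR-Tg over WT (horizontal axis) with 1 standard error on each side from edgeR, for the 10 members (circles) and 6 partners (squares); filled symbols have an adjusted p under 0.05. Ctnnal1 at 0.76 is filled and Dsg2 at 0.73 is not, with standard errors of 0.12 and 0.24, and the filled partners Pkp4, Perp and Xirp2 lie below 0.

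Ratios inside a library do not depend on how libraries are scaled, so the cadherins were also set against Dsp. These ratios were chosen after the values had been seen and are given with no test. For every 100 counts of Dsp, WT libraries held 10.5 to 14.5 counts of Cdh2 (median 12.7) and B3AR-Tg libraries 14.5 to 19.8 (median 17.9). Of the B3AR-Tg animals 7 lay above the highest WT animal, and replicate 3, the lowest in both genes singly, stood at 18.0 within its group. Dsc2 per 100 Dsp counts was 1.67 to 2.93 in WT and 2.06 to 4.18 in B3AR-Tg, with 6 B3AR-Tg animals above all WT animals. Dsg2 per 100 Dsp counts was 0.739 to 2.10 in WT and 1.44 to 4.93 in B3AR-Tg, with 5 above. All 8 B3AR-Tg animals were above the WT median in each of these 3 ratios. Pkp2 per 100 Dsp counts overlapped more, at 7.48 to 10.9 in WT and 8.06 to 13.1 in B3AR-Tg, with 1 above.

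**Figure D3:**
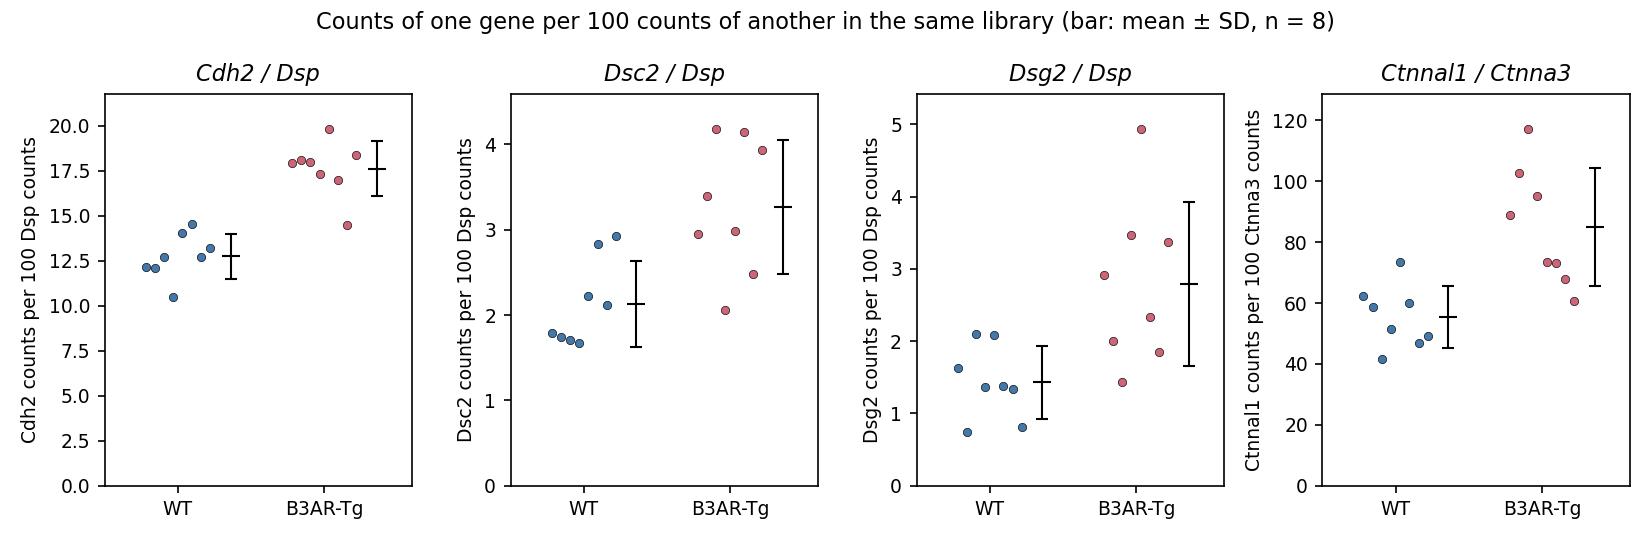
Counts of a gene per 100 counts of another gene in the same library (vertical axes, from 0) for Cdh2, Dsc2 and Dsg2 over Dsp and for Ctnnal1 over Ctnna3; dots are 8 animals per genotype and bars are mean ± SD. Cdh2 per 100 Dsp counts comes closest to separating the genotypes, at up to 14.5 in WT and from 14.5 in B3AR-Tg.

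Other ratios overlapped more. Ctnnal1 per 100 counts of Ctnna3 was 41.7 to 73.5 in WT and 60.7 to 117 in B3AR-Tg, with 4 B3AR-Tg animals above all WT animals. Ctnna3 per 100 counts of Ctnna1 had medians of 19.9 in WT and 20.3 in B3AR-Tg. Jup per 100 counts of Ctnnb1 had medians of 23.7 and 27.9, and the highest animal of all was a WT animal. Dsg2 per 100 counts of Dsc2 spread from 27.8 to 123 in WT and from 34.5 to 169 in B3AR-Tg.

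In 5 lists of further junction genes 65 genes were followed and 52 were tested. Of these, 4 were called, 0 higher and 4 lower in B3AR-Tg, or 7.69% beside 4.91% of all tested genes and, for lower genes, 2.88%. The median log2 fold change of the 52 was −0.03. Among desmosome relatives and filament linkers 2 of 5 tested were called lower, and estimates were below 0 for all 5. Pkp4, an armadillo protein related to the plakophilins, ran from 69.7 to 135 CPM among WT animals (median 84.5) and from 51.5 to 79.6 CPM among B3AR-Tg animals (median 59.1). Pkp4 fell in B3AR-Tg (log2 fold change −0.56, SE 0.13, edgeR adjusted p = 0.0148). Perp, a tetraspan membrane protein of epithelial desmosomes, ran from 140.0 to 266 CPM among WT animals (median 178) and from 116 to 173 CPM among B3AR-Tg animals (median 130.4). It was lower in B3AR-Tg (log2 fold change −0.49, SE 0.12, adjusted p = 0.0223). For both genes every B3AR-Tg value was below the WT median.

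The Perp call was lost without WT replicate 4 (adjusted p = 0.0505), without B3AR-Tg replicate 5 (0.0514) and when libraries were scaled by their totals alone (0.0642). The epithelial members of these families were at or near 0, with no count of Pkp1 or Dsg3 in any animal and at most 6 counts of Dsg1a, 3 of Dsc1 and 3 of Dsc3 in a library.

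Of the adherens junction partners 1 of 14 tested was called. Xirp2, an actin-binding Xin-repeat protein of the disc, ran from 3043 to 9534 CPM among WT animals (median 5071) and from 1642 to 4457 CPM among B3AR-Tg animals (median 1917). It was lower in B3AR-Tg (log2 fold change −1.05, SE 0.25, edgeR adjusted p = 0.0215). The Xirp2 call was lost without WT replicate 4 (adjusted p = 0.0526) or B3AR-Tg replicate 5 (0.0508). Of the 15 tested connexins, channels and scaffolds 0 were called by edgeR, with 4 at an unadjusted p under 0.05. Of the 7 genes of connexin delivery and turnover 1 was called. This was Bin1, a membrane-bending protein of the T-tubules, with 7 to 65 counts per library in WT and 0 to 13 in B3AR-Tg, or 2.85 ± 1.69 and 0.498 ± 0.354 CPM (−2.50, SE 0.46, adjusted p = 0.00507). B3AR-Tg replicates 2, 4 and 5, at 1, 2 and 0 counts, lay below the floor of 3 counts. WT replicates 4, 2 and 8 held 65, 49 and 43 counts, and the other WT animals 7 to 18. Of 11 tested beta-catenin and Hippo pathway genes 0 were called, with 1 at an unadjusted p under 0.05. With the other-cell markers as a covariate 0 of the 52 were called, and the part of those cells in these 4 calls was not tested.

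Within WT, Pkp2 followed the load marker Nppa, the atrial natriuretic peptide gene, animal by animal. Nppa was lower in B3AR-Tg (log2 fold change −3.99, SE 0.68, edgeR adjusted p = 0.00362, and −2.76 with adjusted p = 0.217 under the other-cell covariate), from 78.4 to 1349 CPM among WT animals and from 5.76 to 120.3 CPM among B3AR-Tg animals. Ordered by Nppa from lowest to highest, WT replicates 6, 3, 5, 7, 1, 4, 2 and 8 had Pkp2 at 142, 152, 155, 170, 185, 201, 208 and 213 CPM. The 2 orders were identical over the 8 animals.

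Each of the 10 genes was set against Nppa, the load marker Myh7, the other-cell marker level and the library total in both genotypes, 80 relations on log2 values, chosen after the animals' values had been seen. Pkp2 against Nppa in WT had Pearson r = 0.99 (two-sided exact permutation p = 2.48e-05, adjusted 0.00198) and Spearman's coefficient = 1.00 (exact permutation p = 4.96e-05, adjusted 0.00397). Both are the smallest p-values that the permutations can give for these values. Without the 2 animals farthest from the Nppa median, r was 0.97. Nppa was at 1076 to 1349 CPM in 3 of the WT animals and at 78.4 to 330.0 CPM in the others, and no correlation is given within either set. Of the 10944 other tested genes, 3 including Pkp2 had the same order as Nppa in WT, and 2.33% had a Spearman's coefficient beyond 0.9 in either direction. No other of the 80 relations passed after adjustment.

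Other measures also varied among the WT animals in part along with Pkp2, though none of these relations passed after adjustment. Myh7, the slow myosin heavy chain gene, was lower in B3AR-Tg (log2 fold change −2.03, SE 0.39, edgeR adjusted p = 0.00632, and −1.35 with adjusted p = 0.313 under the other-cell covariate). Its order did not match that of Pkp2 in WT, with r = 0.87 (exact permutation p = 0.0113, adjusted 0.183; 0.82 without the 2 farthest) and Spearman's coefficient = 0.76 (exact permutation p = 0.0368, adjusted 0.226). In B3AR-Tg Pkp2 against Myh7 had r = 0.81 (exact permutation p = 0.0211, adjusted 0.183; 0.80 without the 2 farthest) and Spearman's coefficient = 0.76 (exact permutation p = 0.0368, adjusted 0.226). In the order of Nppa, the other-cell marker level of the WT animals was 2.40, 2.65, 2.62, 3.02, 2.70, 2.85, 3.26 and 2.91 mean log2 CPM. Pkp2 in WT had r = 0.76 with that level (exact permutation p = 0.0264, adjusted 0.183; 0.54 without the 2 farthest) and Spearman's coefficient = 0.79 (exact permutation p = 0.0279, adjusted 0.226). The 3 WT animals highest in Nppa also had the 3 largest WT libraries, of 11584656, 10661394 and 9951739 counts. Pkp2 in WT had r = 0.73 with the library total (exact permutation p = 0.0452, adjusted 0.209; 0.88 without the 2 farthest) and Spearman's coefficient = 0.67 (exact permutation p = 0.0831, adjusted 0.350). The part of other cells and of depth in the relation of Pkp2 with Nppa was not tested.

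In B3AR-Tg, Pkp2 against Nppa had r = 0.80 (exact permutation p = 0.0297, adjusted 0.183) and Spearman's coefficient = 0.43 (exact permutation p = 0.299, adjusted 0.704). Without the 2 farthest animals r was 0.33, so the value rested on those animals, among them replicate 7, the highest in both genes. Whether the relation differs between genotypes was not tested. Dsp in WT had r = 0.74 with Nppa (exact permutation p = 0.0413, adjusted 0.209; 0.88 without the 2 farthest) and Spearman's coefficient = 0.43 (exact permutation p = 0.299, adjusted 0.704). Ctnna3 in B3AR-Tg had r = −0.71 (exact permutation p = 0.0509, adjusted 0.209; −0.93 without the 2 farthest) and Spearman's coefficient = −0.88 (exact permutation p = 0.00724, adjusted 0.143).

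**Figure D4:**
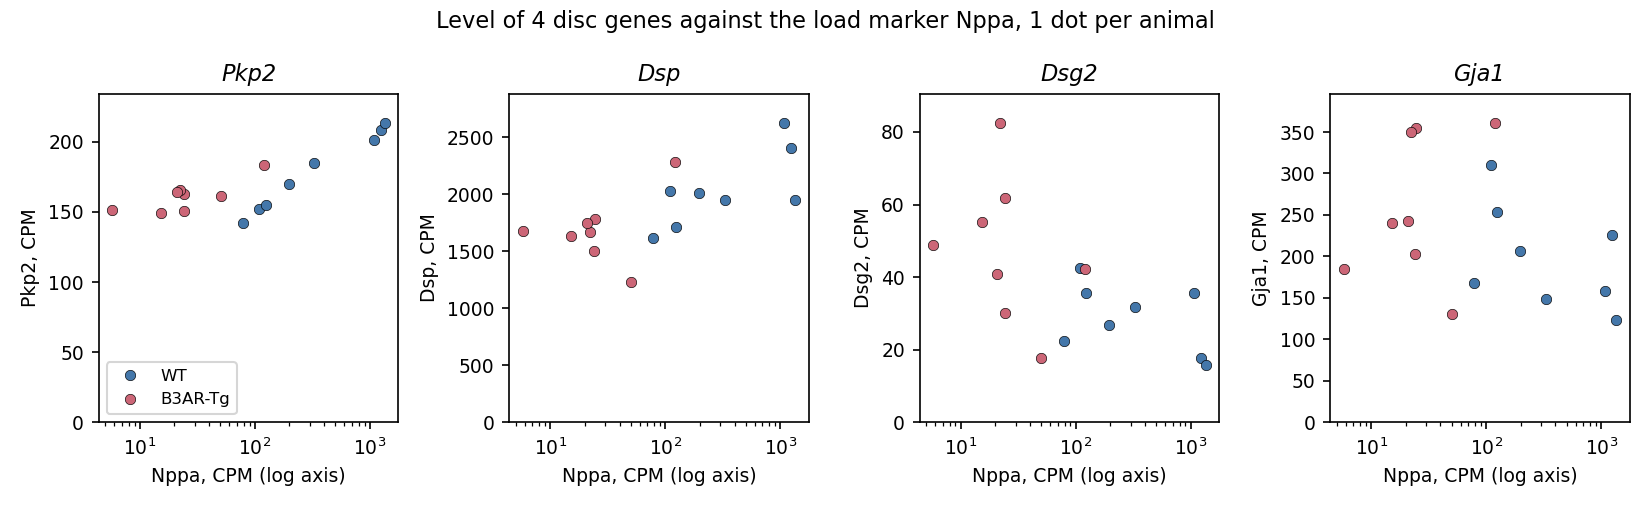
Levels of Pkp2, Dsp, Dsg2 and Gja1 (vertical axes, CPM, from 0) against Nppa (horizontal axis, CPM, log scale), 1 dot per animal, blue for WT and red for B3AR-Tg. In WT, Pkp2 climbs with Nppa at every step from 142 to 213 CPM, while the B3AR-Tg animals lie between 149 and 184 CPM of Pkp2, with Nppa at 5.76 to 120.3 CPM overlapping the low end of WT.

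Pairs of members were also compared across the 8 animals of each genotype, 90 relations in all. After adjustment 0 passed. The unadjusted exact permutation p of r was under 0.05 for 4 of 45 pairs in WT and 9 of 45 in B3AR-Tg. The pairs share animals and genes, and whether these counts differ between genotypes was not tested. Cdh2 and Jup in WT had r = 0.91 (exact permutation p = 0.00188, adjusted 0.0848) and Spearman's coefficient = 0.95 (exact permutation p = 0.00114, adjusted 0.103), with r = 0.75 without the 2 animals farthest from the Jup median. Cdh2 and Gja1 in B3AR-Tg had r = 0.89 (exact permutation p = 0.00179, adjusted 0.0848) and Spearman's coefficient = 0.81 (exact permutation p = 0.0218, adjusted 0.392), with r = 0.80 without the 2 farthest. The same pair in WT had r = 0.15 (exact permutation p = 0.728, adjusted 0.857) and Spearman's coefficient = 0.21 (exact permutation p = 0.619, adjusted 0.785), with r = −0.10 without the 2 farthest, and the difference between genotypes was not tested. Dsg2 and Dsc2, the 2 desmosomal cadherins, had r = −0.77 in WT (exact permutation p = 0.0207, adjusted 0.160) and Spearman's coefficient = −0.64 (exact permutation p = 0.0962, adjusted 0.575), with r = −0.69 without the 2 farthest.

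**Figure D5:**
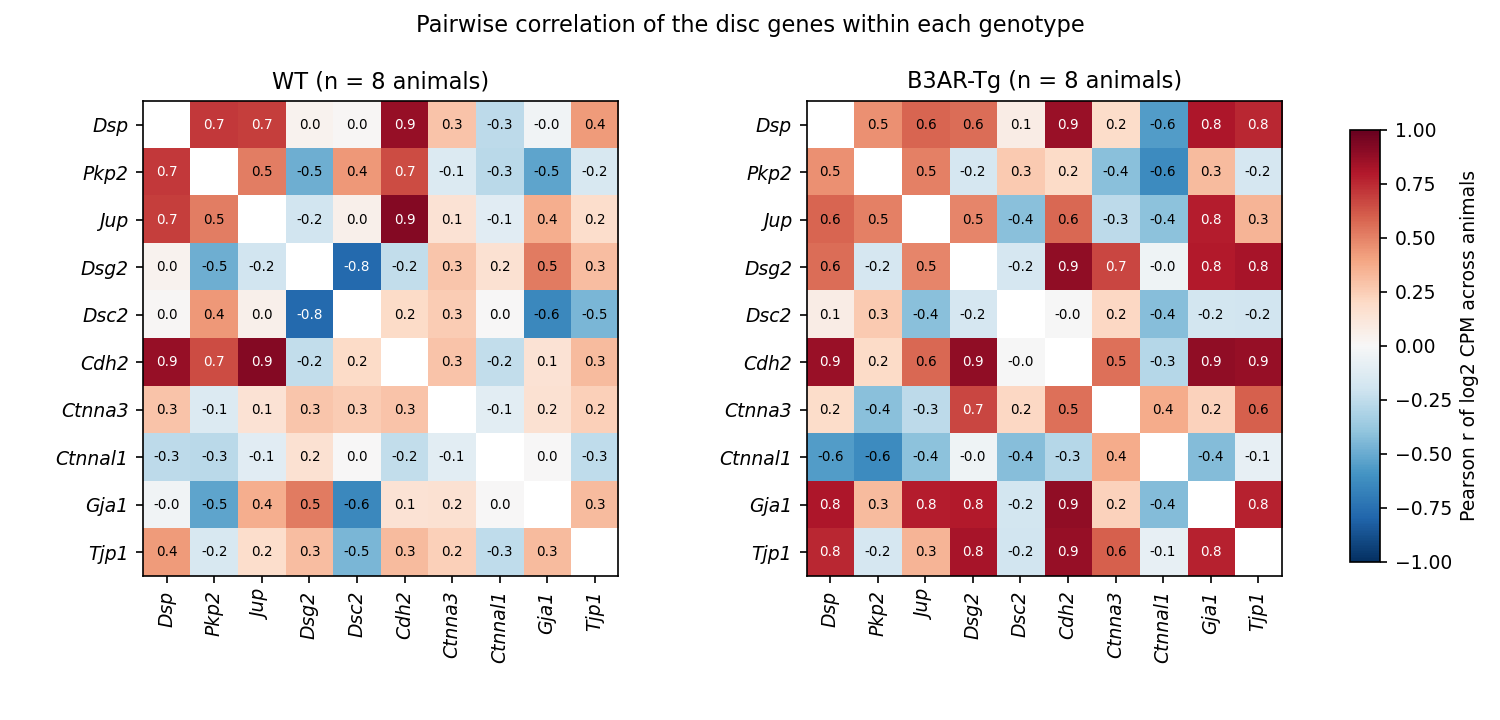
Pearson r of log2 CPM for each pair of the 10 genes across 8 WT animals (left) and 8 B3AR-Tg animals (right); red is positive, blue negative, and the numbers are r. Cdh2 and Dsp have an r of 0.87 in WT and 0.86 in B3AR-Tg, while 0 of the 90 relations passed after adjustment.

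The genes most like 3 of the members were listed by Pearson r of log2 CPM less the genotype mean over the 16 animals, searched over 10944 genes and given as a description, since all points share libraries and scaling. For Dsp they were Atp13a3 (r = 0.94), Map4 (0.93), Utrn (0.93), Osbp (0.91) and Agap1 (0.91). For Gja1 they were Lbh (r = 0.92), Adgrl2 (0.90), Med12l (0.89), Prox1 (0.87) and Peli2 (0.87). For Ctnnal1 they were Yes1 (r = 0.78), Paxbp1 (0.77), Pvr (0.77), Gbp10 (0.76) and Naa25 (0.74).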

How the data were processed

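RNA of ventricular myocytes from 16 mice was depleted of ribosomal RNA and read from both ends as stranded libraries, per the labels' protocols. The authors deposited a table of raw counts, whole numbers for each gene in each animal. Salmon and GRCm39 are named in the submitters' processing notes with no role. The annotation release, strand setting and rounding were not given in the sources used here, and how reads shared by related genes were counted is therefore unknown. Columns were matched to animals by the names in the titles.

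Genes were tested over all 16 animals by edgeR 4.0.16 (quasi-likelihood test, R 4.3.3), with genotype as the term, filterByExpr (minimum count 10, minimum total 15) and TMM scaling. P-values are two-sided and adjusted by Benjamini-Hochberg over 10945 genes, threshold 0.05. CPM was computed from counts and TMM-scaled totals, with a prior count of 2 for log2 values. The floor of 3 counts was 0.201 to 0.487 CPM and covers counting error only. Animals are the replicates. The members and lists were chosen with earlier results of these data known. Named genes were the members, up to 4 called genes per list, Ctnnb1, Ctnna1, Vcl and Gja5, the load markers Nppa and Myh7, and the 5 genes most like Dsp, Gja1 and the called member with the smallest p-value. A partner gene fixed by the rule is not reported here. Alternatives were RLE, upper quartile and library-size scaling, no filter, a mean of at least 1 CPM, DESeq2 1.42.0, limma 3.58.1 voom with sample weights, a replicate block, an other-cell marker covariate, removal of mitochondrial genes with Gm20594, an adjusted p threshold of 0.1, and each animal left out. The tests were checked on simulated data. Transcript lengths and chromosomes come from GENCODE M21 (GRCm38) by gene ID, and gene coordinates on GRCm39 were not used here. Ratios between genes and relations with Nppa, Myh7, the other-cell marker level and library totals were computed after the values had been seen.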

Additional observations from a re-analysis of the deposited data

Results flagged for a closer look

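Values of the members, the named partners, the ratios, the library totals and the other-cell marker level were searched, in each group of 8 animals, for a highest or lowest animal set far apart from its nearest neighbour. Dixon's 95% critical value for the gap over the group's range was exceeded in 1 of 62 groups, and chance would give about 3.1. This was Tjp1 in B3AR-Tg replicate 3, at 31.7 CPM, where the remaining B3AR-Tg animals spanned 43.6 to 57.0 CPM, a gap of 0.543 of the range on log2(CPM + 0.1).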

How the results depend on the processing

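Ctnnal1 kept its direction in all 26 other settings for single genes, with log2 fold changes from 0.52 to 0.84, and passed in each except with the other-cell covariate. The count of called members was 3 with limma voom, 2 at a threshold of 0.1 and 0 with the covariate, and 1 to 3 when single animals were left out (3 without B3AR-Tg replicate 3, 2 without replicate 4 or WT replicate 8). The count of called wider disc genes was 7 with limma voom, 8 at a threshold of 0.1, 0 with the covariate and 2 with the replicate block, and 2 to 8 with single animals left out (2 without WT replicate 4 or B3AR-Tg replicate 5, 8 without WT replicate 3). Over all genes 908 were called at a threshold of 0.1, 18 with the covariate and 230 with the replicate block, and 272 to 675 with single animals left out (272 without WT replicate 4, 277 and 345 without B3AR-Tg replicates 5 and 8). DESeq2 called 804 genes and 1 member.

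Over 494 recomputed values of 19 genes, 455 kept their sign and side of the threshold, 14 lost the call, 6 gained it and 19 changed sign, none of these from a called value. Dsp was at 0.0054 with the covariate. Jup was at 0.056 with library size only and 0.15 with the covariate, and −0.050 to 0.049 with single animals left out. Tjp1 was −0.0028 to 0.10 with single animals left out. Vcl was −0.00061 with RLE, −0.0059 with upper quartile, −0.00076 with DESeq2 and −0.0040 with the replicate block, and −0.057 to 0.047 with single animals left out. Causes were not tested. The replicate numbers belong to different animals, and same-numbered animals did not deviate together (r from −0.22 to 0.09, and 0 of 8 WT animals matched their own number best). With the replicate block the calls of Perp (adjusted p = 0.0655) and Xirp2 (0.0506) were lost and that of Ctnnal1 was not. The SEs of Gja1 (0.20) and Dsg2 (0.24) limit the size of difference that 8 animals per group can show.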

Other observations

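Low and high levels of the disc genes were shared unevenly among animals. B3AR-Tg replicate 3 was the lowest of its group for 6 of the 10 genes (Cdh2, Ctnna3, Dsg2, Dsp, Gja1 and Tjp1), with a library of 9374336 counts and a scaling factor of 1.02. WT replicate 6 was the lowest of its group for 4 (Cdh2, Dsp, Jup and Pkp2), and WT replicate 8 for 3 (Dsg2, Gja1 and Tjp1) while it was the highest for Dsc2 and Pkp2. B3AR-Tg replicate 7 was the highest of its group for Dsp, Gja1 and Pkp2 and the lowest for Ctnnal1.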
